A study of Mus musculus with 17 samples.

Results

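Ribosome biogenesis genes were followed in sorted mouse β cells that had been cultured at low or high glucose, with or without the RNA-binding protein PCBP2. The set held 40 genes of the 54456 gene symbols in the deposited data, chosen by symbol: *Myc*, 6 genes of RNA polymerase I and its initiation factors, 3 of the box C/D and 4 of the box H/ACA small nucleolar ribonucleoproteins (snoRNPs), 5 genes of other nucleolar proteins, and 11 and 10 genes for assembly of the small and the large ribosomal subunit. The set was chosen with earlier results of these data known. All 40 were expressed highly enough to be tested. Islets came from male mice that carried the RIP-Cre transgene, which drives Cre from the rat insulin promoter, and a Cre-dependent tdTomato reporter at Rosa26. Control mice carried these alleles alone and their samples are labelled WT, whereas Pcbp2βKO mice also carried Pcbp2 Fl/Fl. The age of these mice is not given in the sources used here. After a recovery culture, islets were kept for 3 days in low glucose (2.8 mM) or high glucose (16.7 mM), and tdTomato-positive cells were sorted for RNA sequencing. Control cells gave 3 samples at 2.8 mM and 4 at 16.7 mM, and Pcbp2βKO cells gave 5 at each concentration, 17 in all. Nothing in the sources used here says that the replicates came from separate animals, so the p values measure only the spread between these samples.

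A ribosome is made mainly in the nucleolus. RNA polymerase I transcribes the precursor of the large ribosomal RNAs, box C/D and box H/ACA snoRNPs guide its methylation and pseudouridylation, and assembly factors cut, fold and export the small and large subunits. MYC is a transcription factor that binds DNA with MAX at the E-box and is known for raising the expression of genes for ribosome production in growing cells. β cells, which secrete insulin, also need ribosomes to make that insulin.

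The E-box CACGTG was searched on both strands from 250 bases before to 50 after each gene's start on GRCm39. It was found for 6 of the 40 members (15.0%) and for 1701 of 21770 protein-coding genes (7.81%). The variants CATGTG and CACATG, which do not overlap it, were found for 8 of the 40 members and for 11.96% of protein-coding genes. The windows of the 6 members are shown, 30 bases each, since these genes hold the letters that MYC is known to bind. Capitals mark the E-box, and every window is written on the gene's strand.
Ebna1bp2: gacattgttggtCACGTGaggccgaagacc
Fbl: ggcgctcctttcCACGTGcgaaagcctgag
Nop2: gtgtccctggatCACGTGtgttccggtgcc
Nop56: gccatgagcaacCACGTGgtgccgagcagc
Pes1: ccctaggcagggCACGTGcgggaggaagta
Wdr43: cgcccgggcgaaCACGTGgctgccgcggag
They lie at chr4:118477537-118477566 (*Ebna1bp2*), chr7:27869148-27869177 (*Fbl*), chr6:125108774-125108803 (*Nop2*), chr2:130115791-130115820 (*Nop56*), chr11:3913965-3913994 (*Pes1*) and chr17:71923215-71923244 (*Wdr43*), all on the forward strand. Those of *Fbl*, *Pes1* and *Wdr43* lie after the start of the transcript and the other 3 before it. A match describes the letters alone and is not a measurement of binding.

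The samples were first checked against their labels. *Pcbp2* was expressed at 50.7 to 73.4 CPM (read counts scaled to library size by the TMM method) in control cells at 2.8 mM, at 34.99 to 45.4 CPM in control cells at 16.7 mM, at 15.5 to 19.2 CPM in Pcbp2βKO cells at 2.8 mM and at 5.81 to 10.03 CPM in Pcbp2βKO cells at 16.7 mM. Every Pcbp2βKO sample was thus below every control sample. Total estimated counts were between 47385513 and 82419400 per sample. On the first principal component of all genes (30.0% of the variance), replicate 4 of the control cells at 16.7 mM, at 9.89, and replicates 4 and 5 of the Pcbp2βKO cells at 16.7 mM, at 21.4 and 33.3, stood apart from the other samples at 16.7 mM, which were at 90.9 or above. Results at 16.7 mM are therefore also given without these 3. TMM factors moved with glucose, from 1.10 to 1.29 at 2.8 mM and from 0.752 to 1.01 at 16.7 mM.

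High glucose was accompanied by lower expression of many ribosome biogenesis genes in control cells. Differences were tested with edgeR's quasi-likelihood test in 1 fit of all samples, and a gene was called at a Benjamini-Hochberg adjusted p under 0.05 over the 22733 genes tested and a fold change over 1.5. Samples were not paired by replicate number in this fit, and fits with such a block are given below. At 16.7 mM against 2.8 mM, 14 of the 40 members were called lower and 0 higher, where 6.7% of all genes tested were called lower and 7.16% higher. The median log2 fold change of the members was -0.56, beside 0.04 for all genes, and 38 of the 40 estimates were below 0. The exceptions were *Bop1* (0.45) and *Bysl* (0.35), which encode a large-subunit and a small-subunit assembly factor, and neither was called. For 23 members every sample at 16.7 mM was below every sample at 2.8 mM, as was the case for 12.4% of all genes.

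The same comparison in Pcbp2βKO cells called 21 of the 40 members lower and 0 higher, where 10.5% of all genes tested were called lower, 13.5% higher and 23.9% in either direction. The median log2 fold change was -0.62, beside 0.01 for all genes. Groups did not overlap for 23 members, beside 10.8% of all genes. The 13 members called lower in both genotypes were *Myc*, *Polr1c*, *Fbl*, *Gar1*, *Ncl*, *Npm1*, *Mybbp1a*, *Gnl3*, *Utp15*, *Rrp9*, *Nop2*, *Nip7* and *Ebna1bp2*. Their E-box count was 3 of 13, and it was 3 of the other 27. These counts are too small to compare, and a link between the E-box and the calls was not tested.

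**Figure D1:**
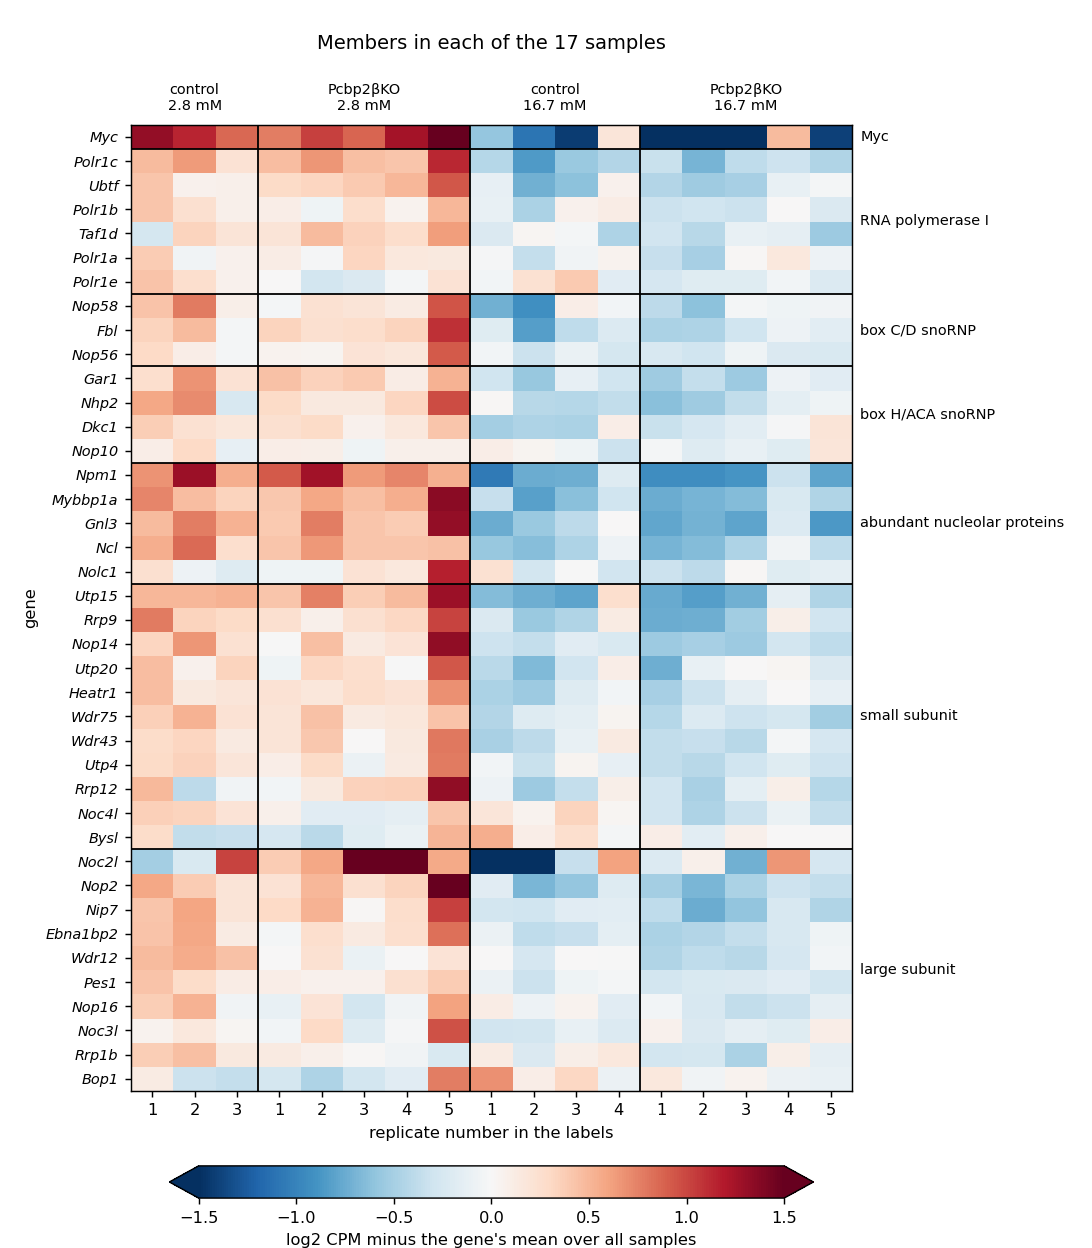
Log2 CPM of the 40 members (rows, grouped by role) in the 17 samples (columns, numbered by replicate), with each gene's mean over all samples subtracted; red is above the mean, blue below, and values beyond 1.5 on either side share the end colours. Most rows are red at 2.8 mM and blue at 16.7 mM in both genotypes, and replicate 5 of the Pcbp2βKO cells at 2.8 mM is the reddest column.

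*Myc* (ENSMUSG00000022346, chromosome 15, 61857227 to 61862223, forward strand of GRCm39) had the lowest fold change of the set in both genotypes. In control cells its expression was 35.9, 31.8 and 26.2 CPM at 2.8 mM and 9.63, 6.73, 5.36 and 16.3 CPM at 16.7 mM. The values in Pcbp2βKO cells were 24.5, 29.2, 26.3, 34.1 and 57.0 CPM at 2.8 mM and 4.96, 2.83, 5.02, 19.9 and 5.45 CPM at 16.7 mM. The concentrations did not overlap in either genotype, and replicate 4, which stood apart above, was the highest sample at 16.7 mM in both. The log2 fold change was -1.72 (SE 0.51, adjusted p = 0.0286, edgeR) in control cells. It was -2.16 (SE 0.44, adjusted p = 0.00119, edgeR) in Pcbp2βKO cells. The call in control cells was lost when any of control replicates 1 and 2 at 2.8 mM or 1, 2 and 3 at 16.7 mM was left out.

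Of the genes for other nucleolar proteins, 4 of 5 were called lower in each genotype. Of all genes tested, 6.7% were called lower in control and 10.5% in Pcbp2βKO cells. *Npm1* (ENSMUSG00000057113, chromosome 11, 33100281 to 33113267, reverse strand) encodes nucleophosmin, a chaperone of the nucleolus. Its expression in control cells was 372, 566 and 340 CPM at 2.8 mM and 112, 139, 139 and 203 CPM at 16.7 mM. Pcbp2βKO cells had 440, 555, 362, 386 and 337 CPM at 2.8 mM and 122, 122, 126, 186 and 134 CPM at 16.7 mM. The lowest sample at 2.8 mM was thus above the highest at 16.7 mM in both genotypes. *Npm1* fell by 1.52 on the log2 scale in control cells (SE 0.23, adjusted p = 0.000656, edgeR) and by 1.59 in Pcbp2βKO cells (SE 0.19, adjusted p = 1.7e-05, edgeR). *Mybbp1a*, which encodes a MYB-binding nucleolar protein, fell by 1.03 and 1.25 on that scale, *Gnl3*, which encodes nucleostemin, by 0.99 and 1.35, and *Ncl*, which encodes nucleolin, by 0.99 and 0.91. *Nolc1*, which encodes a snoRNP chaperone, was not called, with log2 fold changes of -0.07 in control and -0.56 in Pcbp2βKO cells. For *Ncl*, 58.3% of the estimated counts were on transcripts not annotated as protein-coding.

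Among the genes of RNA polymerase I, 1 of 6 was called lower in control and 3 of 6 in Pcbp2βKO cells. The shares of all genes called lower were 6.7% and 10.5%, and 1 call among so few genes is no result about the class. *Polr1c* (ENSMUSG00000067148, chromosome 17, 46554843 to 46559126, reverse strand), whose product is shared by RNA polymerases I and III, was called in both. In control cells it was at 56.2, 63.0 and 46.8 CPM at 2.8 mM and at 30.1, 22.5, 27.4 and 29.8 CPM at 16.7 mM. Pcbp2βKO cells had values of 55.6, 63.8, 55.0, 53.9 and 88.5 CPM at 2.8 mM and of 32.1, 24.9, 30.9, 32.5 and 29.5 CPM at 16.7 mM. Again no sample at 16.7 mM reached the lowest at 2.8 mM. The log2 fold changes were -1.01 (SE 0.17, adjusted p = 0.00136, edgeR) in control and -1.08 (SE 0.15, adjusted p = 3.95e-05, edgeR) in Pcbp2βKO cells. *Ubtf*, which encodes the upstream binding factor of the ribosomal gene promoter, had log2 fold changes of -0.50 in control cells and, called, -0.81 in Pcbp2βKO cells. *Taf1d*, which encodes a subunit of the promoter selectivity factor, had -0.27 and, called, -0.68, and 81.3% of its counts were on transcripts not annotated as protein-coding. The 2 largest subunits, *Polr1a* and *Polr1b*, had log2 fold changes of -0.23 and -0.33 in control cells and of -0.28 and -0.41 in Pcbp2βKO cells, and neither was called. For *Polr1a*, 65.7% of the counts were on transcripts not annotated as protein-coding.

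Of the box C/D snoRNP genes, 2 of 3 were called lower in control cells and 1 of 3 in Pcbp2βKO cells. Beside 6.7% and 10.5% of all genes, these are few calls in a small class. *Nop58* (ENSMUSG00000026020, chromosome 1, 59724106 to 59758203, forward strand) encodes a core protein of the particle. It was at 84.9, 109 and 66.9 CPM in control cells at 2.8 mM and at 38.2, 33.4, 67.6 and 61.3 CPM at 16.7 mM. The Pcbp2βKO samples were at 61.8, 73.8, 72.5, 68.8 and 121 CPM at 2.8 mM and at 48.2, 41.4, 61.7, 60.3 and 61.1 CPM at 16.7 mM. Replicate 3 at 16.7 mM overlapped the 2.8 mM samples in control cells, and in Pcbp2βKO cells the groups were separate by a small margin. The log2 fold change was -0.79 (SE 0.26, adjusted p = 0.0447, edgeR) in control cells and -0.55 (SE 0.22, adjusted p = 0.0657, edgeR) in Pcbp2βKO cells. *Fbl*, the methyltransferase fibrillarin, was called in both, with log2 fold changes of -0.65 and -0.78.

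Among the box H/ACA genes, 1 of 4 was called lower in control and 2 of 4 in Pcbp2βKO cells. With 6.7% and 10.5% of all genes called lower, such small counts are no result about the class. *Gar1* (ENSMUSG00000028010, chromosome 3, 129618560 to 129625045, reverse strand), a core protein of the particle, was at 5.94, 7.97 and 5.79 CPM in control cells at 2.8 mM and at 4.03, 3.35, 4.55 and 4.05 CPM at 16.7 mM. In Pcbp2βKO cells it was at 6.73, 6.35, 6.51, 5.39 and 7.16 CPM at 2.8 mM and at 3.44, 3.87, 3.39, 4.72 and 4.43 CPM at 16.7 mM. The concentrations were separate in both genotypes. The log2 fold changes were -0.72 (SE 0.20, adjusted p = 0.0192, edgeR) and -0.70 (SE 0.16, adjusted p = 0.00361, edgeR). *Dkc1*, the pseudouridine synthase dyskerin, had an adjusted p of 0.0223 (edgeR) in control cells with a log2 fold change of -0.57, under the fold threshold, and *Nop10*, another core protein, had log2 fold changes of -0.15 and -0.12.

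Small-subunit factors were called lower in 2 of 11 cases in control cells and in 7 of 11 in Pcbp2βKO cells. Over all genes the shares called lower were 6.7% and 10.5%. *Utp15* (ENSMUSG00000041747, chromosome 13, 98382749 to 98399562, reverse strand) encodes a protein of the small-subunit processome. It was at 60.1, 60.3 and 61.2 CPM in control cells at 2.8 mM and at 27.2, 25.6, 24.6 and 50.7 CPM at 16.7 mM. In Pcbp2βKO cells it was at 56.8, 72.0, 55.2, 59.5 and 104 CPM at 2.8 mM and at 25.2, 24.1, 25.9, 38.8 and 31.3 CPM at 16.7 mM. Replicate 4 was again the highest at 16.7 mM, still below the samples at 2.8 mM. *Utp15* fell by 0.92 on the log2 scale in control (SE 0.25, adjusted p = 0.0197, edgeR) and by 1.26 in Pcbp2βKO cells (SE 0.21, adjusted p = 0.000281, edgeR). *Rrp9*, which encodes a protein of the U3 snoRNP, was the other member called in both, and *Utp4*, *Wdr43*, *Wdr75*, *Rrp12* and *Nop14* were called in Pcbp2βKO cells, with log2 fold changes from -0.59 (*Utp4*) to -0.96 (*Nop14*).

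Large-subunit factors were called lower in 3 of 10 cases in each genotype: *Nop2*, *Nip7* and *Ebna1bp2*. Over all genes, 6.7% were called lower in control and 10.5% in Pcbp2βKO cells. *Nop2* (ENSMUSG00000038279, chromosome 6, 125108816 to 125121717, forward strand) encodes a methyltransferase of the large ribosomal RNA. It was at 63.2, 55.1 and 48.1 CPM in control cells at 2.8 mM and at 37.6, 26.1, 28.2 and 36.9 CPM at 16.7 mM. In Pcbp2βKO cells it was at 48.9, 59.8, 49.9, 53.0 and 121 CPM at 2.8 mM and at 29.7, 26.2, 30.2, 34.0 and 32.9 CPM at 16.7 mM. The concentrations did not overlap, and replicate 5 of the Pcbp2βKO cells at 2.8 mM was far above its group. *Nop2* fell by 0.78 on the log2 scale in control (SE 0.25, adjusted p = 0.0424, edgeR) and by 1.12 in Pcbp2βKO cells (SE 0.21, adjusted p = 0.000721, edgeR). The PeBoW complex of *Pes1*, *Bop1* and *Wdr12*, which acts in large-subunit maturation, was not uniform. *Pes1* and *Wdr12* had adjusted p values of 0.0275 and 0.0077 (edgeR) in control cells with log2 fold changes of -0.40 and -0.55, under the fold threshold, whereas *Bop1* was at 0.45. *Noc2l* varied most, from 6.0 to 60.7 CPM among control samples at 16.7 mM.

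**Figure D2:**
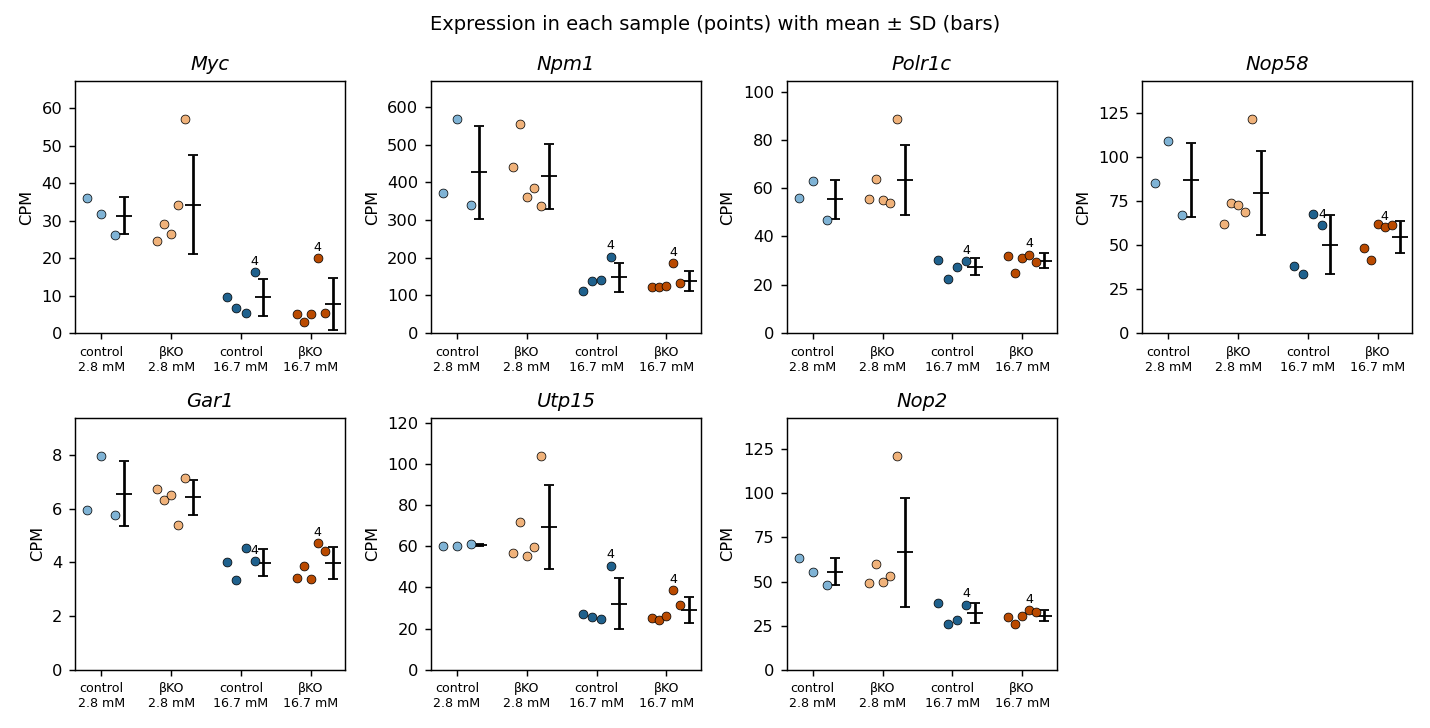
CPM of *Myc*, *Npm1*, *Polr1c*, *Nop58*, *Gar1*, *Utp15* and *Nop2* in each sample (points), with the mean ± SD of each group (bars) and replicate 4 at 16.7 mM marked. The samples at 16.7 mM lie below those at 2.8 mM of the same genotype, except for *Nop58* in control cells, where 67.6 CPM at 16.7 mM is above 66.9 CPM at 2.8 mM.

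**Figure D3:**
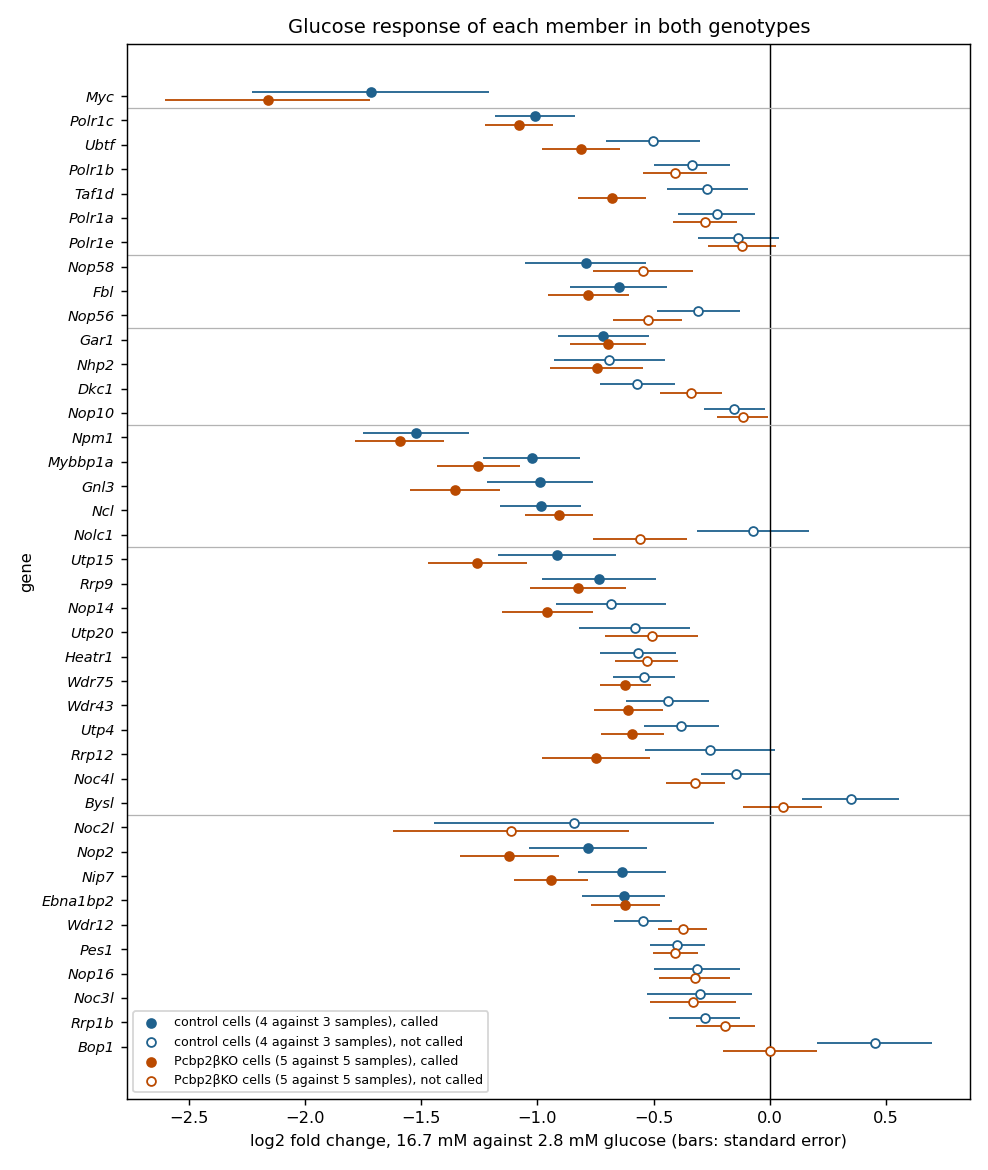
Log2 fold change of each member at 16.7 mM against 2.8 mM in control (blue) and Pcbp2βKO cells (orange), with its standard error; filled points were called. All members but *Bop1* and *Bysl* lie left of 0 in both genotypes.

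Some of these counts depended on single libraries and on scaling. In control cells the count of members called fell to 5 when the library left out was replicate 2 of either concentration and to 6 when it was replicate 1 at low glucose. The share of all genes called lower, 6.7% in the main fit, fell as well. It was 2.91% without replicate 2 at low glucose, 4.42% without replicate 2 at high glucose and 4.19% without replicate 1 at low glucose. Leaving out replicate 1 or 3 at high glucose gave 9 and 8 members, with 5.34% and 4.71% of all genes called lower. *Gnl3*, *Mybbp1a*, *Ncl*, *Npm1* and *Polr1c* stayed called whichever sample was left out. The control calls of *Rrp9*, *Nop58* and *Nop2* held least often, in 4, 7 and 9 of the 17 fits with 1 sample left out. In Pcbp2βKO cells the count was 14 without replicate 5 at 2.8 mM, and 14 members stayed called whichever sample was left out. Without that replicate 9.62% of all genes were called lower, beside 10.5% in the main fit. Without the 3 samples that stood apart, 21 members were called in control and 23 in Pcbp2βKO cells. The shares of all genes called lower were then 11.8% and 14.4%. With the replicate number as a block over all samples, 21 were called in control cells, where 10.7% of all genes were called lower. This block pairs the control samples but also ties same-numbered samples of the 2 genotypes. A block within each genotype gave 22 in control cells, with 11.7% of all genes called lower. Scaling by total counts moved the median of all genes to -0.35 in control and -0.47 in Pcbp2βKO cells and called 32 and 38 members. It called 17.8% and 28% of all genes lower. Under each scaling 38 or more members were below the median of all genes in both genotypes.

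Other cell types were measured beside these differences. The summed expression of 4 macrophage markers (*Cd68*, *Adgre1*, *Lyz2* and *Ptprc*) was 18.1 to 65.3 CPM at 2.8 mM and 2.21 to 15.1 CPM at 16.7 mM in control cells. In Pcbp2βKO cells it was 26.1 to 152 CPM at 2.8 mM and 1.64 to 13.5 CPM at 16.7 mM. *Adgre1* was at 0 in at least 1 sample of each group at 16.7 mM and in no sample at 2.8 mM. The 6 proliferation markers went the other way, from 3.99 to 5.93 CPM at 2.8 mM against 8.18 to 62.2 CPM at 16.7 mM in control cells. In Pcbp2βKO cells the proliferation sum was 4.06 to 12.8 CPM at 2.8 mM and 2.18 to 271 CPM at 16.7 mM. The β cell markers summed to 118358 to 122687 CPM at 2.8 mM and 271464 to 525231 CPM at 16.7 mM in control cells. The 2 markers of PP cells summed to 1111 to 1207 CPM at 2.8 mM and to 368 to 999 CPM at 16.7 mM in control cells, without overlap. In Pcbp2βKO cells the medians at 2.8 mM and 16.7 mM were 2352 and 730 CPM for PP, 5412 and 1430 CPM for alpha and 829.4 and 341.3 CPM for delta cell markers, with ranges that overlapped. The part of any of these in the members' values was not tested. In bulk samples, fewer cells of a type and less RNA per cell cannot be told apart.

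Levels between genes were compared per transcript length, as TPM. *Npm1* was the highest member in every group, with 319 ± 78.4 TPM (SD, n = 3) in control cells at 2.8 mM and 66.2 ± 27.5 TPM (SD, n = 4) at 16.7 mM. *Nop10* was second, with 94.1 ± 8.24 and 48.4 ± 4.61 TPM, and *Noc3l*, a large-subunit factor, was the lowest, with 2.14 ± 0.0749 and 1.02 ± 0.234 TPM. *Myc* was at 16.1 ± 1.39 TPM at 2.8 mM and 3.09 ± 1.95 TPM at 16.7 mM. Neighbours in this order overlapped in range for 33 of 39 pairs in control cells at 2.8 mM and for 37 or 38 in the other groups, so most of the order within the list is not resolved. TPM is not scaled between samples, so a difference in TPM between the concentrations is not a gene's fold change. On log2(TPM + 0.1) the median change of all genes with glucose was -0.55 in control cells. With TMM scaling the log2 fold changes of *Nop10* and *Noc3l* there were -0.15 and -0.30, and neither was called.

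Loss of PCBP2 was not accompanied by a called change in any member. At 2.8 mM, 0 of 40 were called by edgeR (2 had an unadjusted p under 0.05) and 0 by DESeq2, where 1.79% of all genes tested were called lower and 0.255% higher, 2.05% in all. The median log2 difference was 0.05, beside 0.03 for all genes, and its sign rested on single libraries. It was -0.09 without Pcbp2βKO replicate 5 at 2.8 mM, where 10 estimates in place of 24 were above 0, -0.03 without control replicate 3 at 2.8 mM and -0.08 with the replicate block. *Wdr12* had the smallest adjusted p (0.0897, edgeR), with a log2 fold change of -0.41 and every Pcbp2βKO sample, 43.2 to 54.0 CPM, below every control sample, 62.5 to 67.6 CPM. DESeq2 gave *Wdr12* an adjusted p of 0.0365, with a fold change under the threshold. *Rrp1b* was the other member whose groups did not overlap, beside 6.89% of all genes that were lower without overlap. Markers of other cell types differed between the genotypes at 2.8 mM. The 3 delta cell markers summed to 480 to 1316 CPM in Pcbp2βKO and 250 to 390 CPM in control cells, and the PP cell markers to 1431 to 7424 and 1111 to 1207 CPM, both without overlap. The 4 alpha cell markers summed to 1549 to 9403 and 679 to 2601 CPM, and the macrophage markers had medians of 95.98 and 30.7 CPM, both with overlap. The β cell markers summed to 66794 to 96927 CPM in Pcbp2βKO cells, below the control range. Their part in these differences was not tested.

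At 16.7 mM the knockout again gave 0 of 40 members called by edgeR (2 had an unadjusted p under 0.05) and 0 by DESeq2, where 1.42% of all genes were called lower and 0.29% higher, 1.71% in all. The median log2 difference was -0.09, beside 0.01 for all genes. It was -0.03 without control replicate 4 at 16.7 mM, where 16 estimates in place of 9 were above 0, and -0.15 with the replicate block. *Noc4l*, which encodes a small-subunit factor, had the smallest adjusted p (0.109, edgeR), with a log2 fold change of -0.46, and DESeq2 gave it 0.0376 with a fold change under the threshold. Its Pcbp2βKO samples, 15.2 to 19.5 CPM, were below its control samples, 21.4 to 26.5 CPM, and it was the only member without overlap, beside 2.64% of all genes that were lower and 1.85% that were higher without overlap. For *Myc* the difference was -0.32 with a 95% interval from -1.26 to 0.63 on the log2 scale. At 2.8 mM the *Myc* difference was 0.13 with an interval from -0.89 to 1.15. Both intervals include 0, and a difference of any size within them is compatible with these samples. For *Npm1* the intervals were -0.53 to 0.31 at 16.7 mM and -0.49 to 0.42 at 2.8 mM.

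The glucose responses of the genotypes were compared through the interaction term. It called 0 of 40 members by edgeR (0 with an unadjusted p under 0.05) and 0 by DESeq2, where 0.0044% of all genes, or 1 gene, were called. The *Myc* interaction was -0.44 with a 95% interval from -1.84 to 0.95 on the log2 scale. The 8 members called in Pcbp2βKO cells alone were therefore not shown to respond differently. Across the 40 members, the log2 fold changes in the 2 genotypes, which share no samples but share scaling and gene-wise spread, had a Pearson r of 0.899, beside 0.683 across all genes, and genes are not independent replicates.

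**Figure D4:**
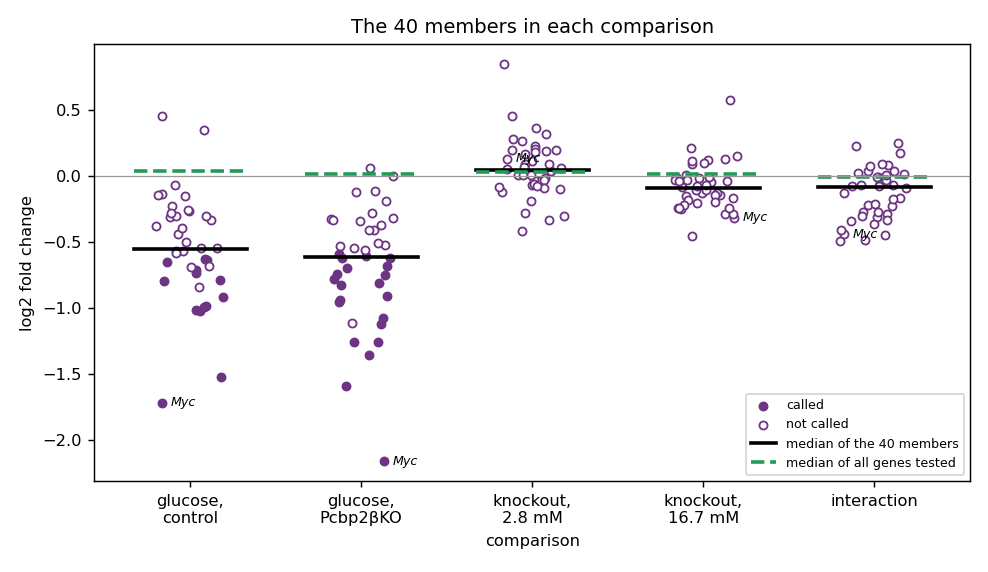
Log2 fold change of the 40 members (points) in each of the 5 comparisons, with the median of the members (black line) and of all genes tested (green dashes); filled points were called. Members lie mostly below 0 for glucose in both genotypes and around 0 for the knockout and the interaction.

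*Myc* was then set beside the other 39 members in each sample. Each gene's group mean was removed first, which takes out the differences between groups but not the spread within them, such as that of the 3 samples at 16.7 mM that stood apart along the first principal component. The Pearson r with *Myc* over the 17 samples had a median of 0.494 for the members and was above 0 for 38 of 39, beside a median of 0.003 over all genes. It was highest for *Rrp9* (0.848), *Utp15* (0.813) and *Mybbp1a* (0.746) and lowest for *Polr1e* (0.075), *Taf1d* (0.062) and *Nop10* (-0.178). These points share library, depth and scaling factor, so the values are a description of these 17 samples. Replicate 5 of the Pcbp2βKO cells at 2.8 mM, with the highest *Myc* of all samples, was the highest of its group for 32 of the 40 members, and replicate 4 of the Pcbp2βKO cells at 16.7 mM, the highest of its group in *Myc*, was the highest for 25. In control cells, replicate 4 at 16.7 mM, the highest of its group in *Myc*, was the highest for 20 members and the lowest for 8. In control cells at 2.8 mM, replicate 1, the highest in *Myc*, was the highest for 18 members, while replicate 2 was so for 20.

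**Figure D5:**
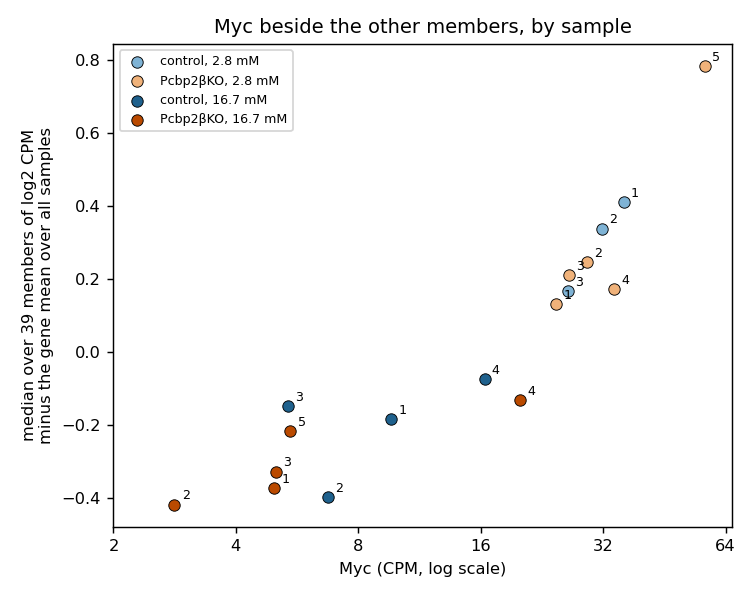
Median over the other 39 members of log2 CPM minus each gene's mean (vertical axis) against *Myc* in CPM on a log scale (horizontal axis), 1 point per sample with its replicate number. The 8 samples at 2.8 mM lie at the upper right of the 9 at 16.7 mM, and replicate 5 of the Pcbp2βKO cells at 2.8 mM is at the far end.

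A further 124 genes of the pathway, of which 123 could be tested, were counted in the same way. This list too was chosen with earlier results of these data known, so its counts are a description and no independent support. At high glucose, 40 were called lower and 0 higher in control cells, where 6.7% and 7.16% of all genes were, and the median log2 fold change was -0.46, beside 0.04 for all genes. In Pcbp2βKO cells 53 were called lower and 1 higher, where 10.5% and 13.5% of all genes were, and the median was -0.53, beside 0.01 for all genes. By class, the calls lower in control and Pcbp2βKO cells were 15 and 21 of 44 large-subunit factors, 10 and 16 of 38 small-subunit factors, 7 and 6 of 13 exosome genes tested, 3 and 3 of 10 snoRNP assembly genes, 2 and 3 of 9 further RNA polymerase I genes and 3 and 4 of 9 genes of RNase MRP and RNase P, so the last 3 classes rest on few calls. In control cells the lowest log2 fold changes among those called were in *Tma16* (-1.56), *Rrp15* (-1.24), both large-subunit factors, and *Nufip1* (-1.18), a snoRNP assembly factor. In Pcbp2βKO cells they were in *Tma16* (-1.55), *Pwp2* (-1.34), a small-subunit factor, and *Nufip1* (-1.28), and *Pop1*, a protein of RNase MRP and RNase P, was called higher (1.32). The knockout and the interaction called 0 of the 123 in edgeR, with 1, 4 and 0 at an unadjusted p under 0.05 for the knockout at 2.8 mM, at 16.7 mM and the interaction.

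Of 12 genes of the MYC and MAX network, 0 were called lower and 1 higher in control cells and 2 higher in Pcbp2βKO cells. These counts are near the 7.16% and 13.5% of all genes called higher and are no result about the network. *Mxd4*, which encodes a MAX partner that represses transcription, rose by a log2 fold change of 0.89 (adjusted p = 0.00429, edgeR) and of 1.00 (adjusted p = 9.68e-05, edgeR). *Mxd3* was called in Pcbp2βKO cells (log2 fold change 3.66), where its groups overlapped.

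Counts on transcripts not annotated as protein-coding were also compared. Among 10 members with at least 10% of their counts on such transcripts, 40 exact two-sided permutation tests of that share (10 members, 4 comparisons) gave 5 with an unadjusted p under 0.05 and 0 with an adjusted p under 0.05. All 5 were for glucose in Pcbp2βKO cells. Among them *Gnl3* (15.4% at 2.8 mM and 26.8% at 16.7 mM) and *Taf1d* (77.8% and 84.5%) had separate groups. Both had p = 0.00794 (permutation test), the smallest possible with 5 against 5 samples, and an adjusted p of 0.159. With 4 against 3 samples, as for glucose in control cells, this test cannot give a p under 0.05. The count of 0 therefore does not show unchanged shares. Exons of 31 of the 40 members overlap an exon on the opposite strand in the annotation, among the named ones *Myc*, *Polr1c*, *Utp15* and *Nop2*. Whether strand was used in counting is not given in the sources used here, so reads of such partners cannot be told apart from the members' own.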

How the data were processed

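RNA sequencing of 17 samples was analysed. Per the study's methods, the authors pseudoaligned read pairs to the GRCm39 transcriptome with Kallisto; its version is not given in the sources used here. They deposited, for each sample, estimated counts per transcript, not normalized between samples, and TPM, scaled to transcript length within the sample. Here, estimated counts were summed per gene symbol, rounded, filtered with edgeR's default filter and scaled by TMM. One edgeR (4.0.16) quasi-likelihood fit of the 4 group means gave 5 contrasts. The authors' model held a batch whose levels are not given in the sources used here, so none was fitted. Log2 CPM used a prior count of 2. DESeq2 (1.42.0), limma (3.58.1) on log2(TPM + 0.1) and log2(TPM + 1), other scalings, a replicate block and each sample left out were alternatives. The members and lists were chosen with earlier results of these data known. Genes given in every sample were *Myc* and, per role, the called member with the largest absolute log2 fold change for glucose in control cells. Other pathway genes named were up to 3 called per direction and comparison. Same-numbered control samples at 2.8 and 16.7 mM correlated at 0.124 to 0.259 in their deviations from the group means, above the limit of 0.1. Their numbers were therefore taken as pairs in the alternatives with a block. The main fit, which gave the reported calls, SE and adjusted p values, left all samples unpaired. The labels do not say what a number stands for. Between genotypes and within Pcbp2βKO cells, the lowest such correlation was under this limit. The replicate block nevertheless ties same-numbered samples of all groups. Promoters were read from GRCm39 with GENCODE M39, which is newer than the annotation of the files. No separate interval for counting error is given, because it is part of the SD between samples.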

Additional observations from a re-analysis of the deposited data

Results flagged for a closer look

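In groups of 4 or 5 samples, a member's highest or lowest sample was compared with the rest of its group by Dixon's ratio of gap to range. This was done for 120 combinations of member and group and singled out 18, where chance gives about 1 in 20, or 6. Replicate 5 of the Pcbp2βKO cells at 2.8 mM accounted for 10 of them, each time as the highest sample. Its log2 CPM was 5.92 for *Bop1*, 6.01 for *Fbl*, 5.66 for *Heatr1*, 8.33 for *Mybbp1a*, 4.61 for *Nhp2*, 7.06 for *Nolc1*, 6.92 for *Nop2*, 7.73 for *Nop56*, 6.92 for *Nop58* and 5.21 for *Rrp9*. Replicate 4 of the Pcbp2βKO cells at 16.7 mM was highest at 6.04 log2 CPM for *Gnl3* and 7.54 log2 CPM for *Npm1*. Replicate 2 of the Pcbp2βKO cells at 2.8 mM was highest at 8.36 log2 CPM for *Ncl*. Replicate 3 of the Pcbp2βKO cells at 2.8 mM was lowest at 6.34 log2 CPM for *Nop10*. Replicate 1 of the control cells at 16.7 mM was highest at 3.65 log2 CPM for *Nhp2*. Replicate 2 of the control cells at 16.7 mM was lowest at 5.27 log2 CPM for *Wdr12*. Replicate 4 of the control cells at 16.7 mM was highest at 5.15 log2 CPM for *Dkc1* and 5.66 log2 CPM for *Utp15*. No cause of these values was tested.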

How the results depend on the processing

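For glucose in control cells, 14 members were called. The count was 32 with total counts only, 8 with upper-quartile factors, 38 with limma on log2(TPM + 0.1), 38 with limma on log2(TPM + 1), 22 with the replicate block within genotype and 21 with the replicate block, and it ranged from 5 to 20 with 1 sample left out. For glucose in Pcbp2βKO cells, 21 were called. The count was 38 with total counts only, 40 with limma on log2(TPM + 0.1), 40 with limma on log2(TPM + 1) and 21 with the replicate block, which lost *Utp4* and gained *Noc2l*, and it ranged from 14 to 25 with 1 sample left out. The scalings that raised the counts also moved the median of all genes below 0 and raised the share of all genes called lower. In control cells this share was 17.8% with total counts only, beside 6.7% in the main fit. With limma it was 37.2% on log2(TPM + 0.1) and 29.5% on log2(TPM + 1), and with upper-quartile factors 5.36%. In Pcbp2βKO cells it was 28% with total counts only, beside 10.5% in the main fit. The limma shares there were 51.8% and 37.3%. By adjusted p alone, 19 and 27 members passed. The knockout and interaction counts stayed at 0 under every alternative run, the replicate block included. Counts using only protein-coding transcripts, an alternative chosen after seeing the data, were 14 and 19. This lost *Nop58* and gained *Taf1d* in control cells, and it lost *Wdr43* and *Ebna1bp2* in Pcbp2βKO cells. Of the calls of single members, 349 were kept and 71 lost over the alternatives in control cells, 607 were kept and 23 lost in Pcbp2βKO cells, and none changed direction. With 3 to 5 samples a group, a member that was not called is not shown to be unchanged.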
